A study of Columba livia with 19 samples.

Results

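Of the 15392 gene identifiers counted in pigeon feather collars, 84 were moderately reduced in recessive red birds of both batches of the study. CPM values, which scale the count of a gene to a library of fixed size, were taken from the column totals. The log2 ratio of mean CPM in recessive red to mean CPM in wild type was computed in each batch after 0.5 was added to both means. A gene was taken when the ratio was at or below -0.75 in both batches but not at or below -1.5 in both, and when its mean wild-type CPM was at least 2 in each batch. The genes were thus chosen by the measured difference between recessive red and wild type, and every value of that difference given here describes them and tests nothing.

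Feathers take their colour from melanocytes, pigment cells of neural crest origin that sit in the collar, the ring of growing epidermis at the base of a regrowing feather, and pass melanin to the surrounding keratinocytes. Black to brown eumelanin and red to yellow pheomelanin are made by the same cells from the same precursor, and the balance depends on enzymes and melanosome proteins of the eumelanin route. SOX10 is a transcription factor that neural crest cells and melanocytes need, and it activates many melanocyte genes. The recessive red alleles e1 and e2 are deletions upstream of SOX10, and homozygous birds make pheomelanin in place of eumelanin.

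The tissue was the collar from the proximal 4 to 5 mm of secondary flight feathers that had regrown for 9 to 10 days, with the pulp removed. In batch 1, whose sequencing dates from 2017, 3 recessive red birds with 2 copies of e1 stood against 4 of wild type. In batch 2, whose collection dates from 2020, 3 recessive red birds had 2 copies of e2 and 3 had 2 copies of e1. It also held 1 bird of wild-type colour that carried a single e1 allele, and 5 homozygous wild-type birds. The carrier did not enter the rule. The labels give neither sex nor age, and all birds carry the same treatment, plucking and regrowth. The collar is a mixture of cell types, and in such bulk samples fewer melanocytes and less RNA per melanocyte cannot be told apart.

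The identifiers could not be paired with gene names: 0 of 15392 matched the 22830 pigeon genes of the RefSeq table used here. No role, position or sequence is therefore given for any gene, and the melanocyte, keratinocyte, pulp and blood markers could not be read. Total counts per bird ranged from 13559606 to 23168538 in the 9 recessive red birds and from 14895906 to 22014628 in the 10 birds of wild-type colour. Library scaling factors (TMM, the trimmed mean of M values) ran from 0.883 to 1.07. All CPM values per bird given from here on are scaled by these factors. In 12839 genes tested over all birds, 331 were lower and 211 higher in recessive red (4.22% in all).

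The 84 genes were the larger share of the 121 that met the fold limit in both batches and the wild-type floor. The other 37 fell at or below -1.5 in both batches and are called strongly reduced here. Among the 84, 50 stayed above -1.5 in both batches, 28 passed it in batch 1 alone and 6 passed it in batch 2 alone. Their ratios ran from -3.90 to -0.75 in batch 1 with a median of -1.28, and from -2.24 to -0.76 in batch 2 with a median of -1.07. A deeper reduction in batch 1 than in batch 2 was the more frequent order, seen in 58 of the 84. Both ratios reached at least a 2-fold reduction, a log2 value of -1 or less, in 38.

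**Figure D1:**
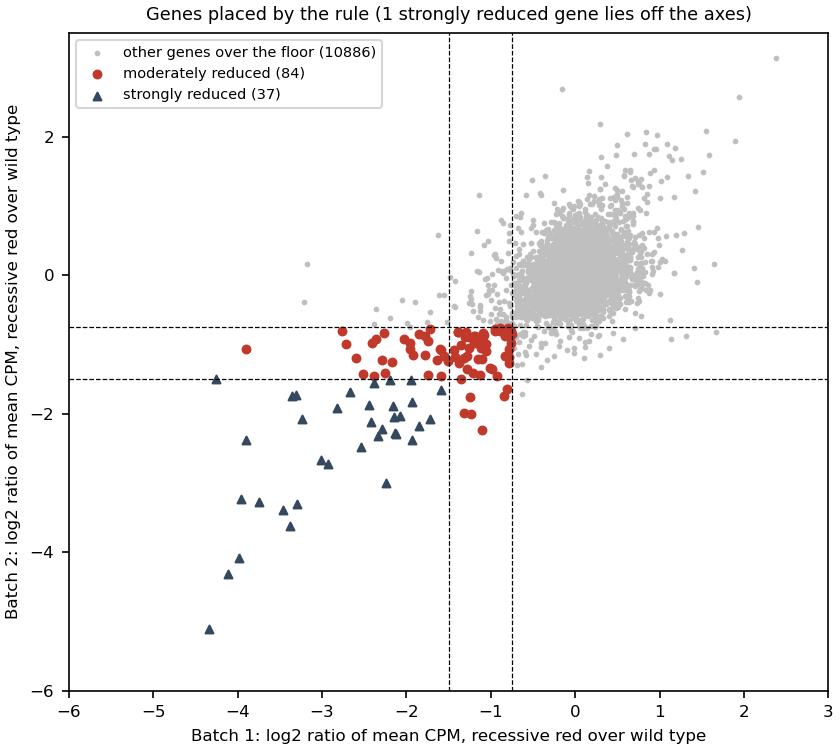
Each point is a gene with a mean wild-type CPM of at least 2 in both batches, placed by its log2 ratio of mean CPM (recessive red over wild type) in batch 1 (x axis) and batch 2 (y axis). The 84 moderately reduced genes fill the band between the dashed lines at -0.75 and -1.5, with 28 reaching past -1.5 on the batch 1 axis and 6 on the batch 2 axis.

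The limits of the rule cut through a continuous spread of values. In batch 1 the gene just inside had a ratio of -0.753 and the gene just outside -0.749. In batch 2 these values were -0.759 and -0.748. Toward the strongly reduced genes, the nearest of the 84 had a weaker ratio of -1.46 and the nearest excluded gene one of -1.501. At the expression floor the lowest of the 84 had a wild-type mean of 2.03 CPM, and the highest excluded gene one of 1.96 CPM. A further 29 genes met the fold limit but not the floor. Membership near these limits is a matter of small differences, and 32 of the 84 genes met the rule whichever single bird was left out.

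In wild type the 84 genes spanned 2.23 to 325 CPM in batch 1 and 2.03 to 168 CPM in batch 2, as unscaled means. A single gene held 0 to 11446 counts in a single bird, and only 2 of the 84 were at 0 counts in any bird, in each case a recessive red one. Summed over the 84 genes, 16230 to 25334 counts stood in each recessive red bird of batch 1 and 29822 to 73427 in each wild-type bird of that batch. In batch 2 the sums were 17558 to 24720 counts in recessive red and 34816 to 52817 in homozygous wild type. The sums do not overlap in either batch. The 10 most abundant genes held 46.8% of the summed CPM and the most abundant held 7.99%, so the sum does not rest on a single transcript.

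In batch 1 the summed level of the 84 genes was 1021 ± 109 CPM in recessive red birds (SD, n = 3), against 2865 ± 797 CPM in wild-type birds (SD, n = 4). In batch 2 it was 1209 ± 93.0 CPM in recessive red birds (SD, n = 6), against 2526 ± 520 CPM in homozygous wild-type birds (SD, n = 5). Recessive red collars thus held 35.6% of the wild-type sum in batch 1 and 47.9% in batch 2. The strongly reduced genes held 5.71% and 13.6% of theirs. The larger share left in the 84 genes is set by the rule.

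Counted by the fit over all birds, 70 of the 84 genes were called lower and 0 higher in recessive red (edgeR quasi-likelihood test, adjusted p under 0.05), where 2.58% of all genes tested were called lower and 1.64% higher. The rule used this contrast, so nothing is read from the share. Within batch 1 alone, 22 of the 84 were called lower, and 0 higher, against 0.457% and 0.00788% of all genes tested. Within batch 2 alone, 38 were called lower and 0 higher, against 1.03% and 1.35%. Calls in both batches were made for 15 genes, against 0.291% of the genes tested in all 3 fits, and 26 genes called over all birds were called in neither batch alone, against 1.54%. The batch 1 count became 11 without recessive red bird 1, 11 without recessive red bird 4 and 56 with DESeq2, where 0.218%, 0.226% and 1.84% of all genes were called in either direction.

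The 14 genes not called over all birds were not those with the smallest fold. Their median log2 fold change was -1.35, and that of the 70 called genes was -1.23. The standard error had a median of 0.47 in the 14 and 0.22 in the 70. A call weighs the fold against the standard error, so at a like fold this difference follows from the call itself. In 6 of the 14 and in 12 of the 70, 1 bird stood apart from the rest of its group in at least 1 group. In each group taken singly this held for 4.82% to 5.10% of all genes over the wild-type floor. The counts of 6 and 12 take in any of several groups, so they cannot be set against these single-group shares. Adjusted p values of the 14 ran from 0.0586 to 0.384 (edgeR). In the authors' deposited table, 76 of the 84 had an adjusted p under 0.05 and were lower, 7 had a higher adjusted p and 1 had none. Of all genes with an adjusted p in the authors' deposited table, 3.32% were called lower.

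In 60 of the 84 genes every recessive red bird of batch 1 lay below every wild-type bird, as did 4.61% of all genes tested. In batch 2 this held for 35 genes, against 1.67%. Separation in both batches was found for 29 genes, against 0.756%. Over all 19 birds together, with the carrier counted as wild type, 16 genes separated the colours, against 0.382%. These counts come from the contrast that chose the genes and describe how much the groups overlap.

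**Figure D2:**
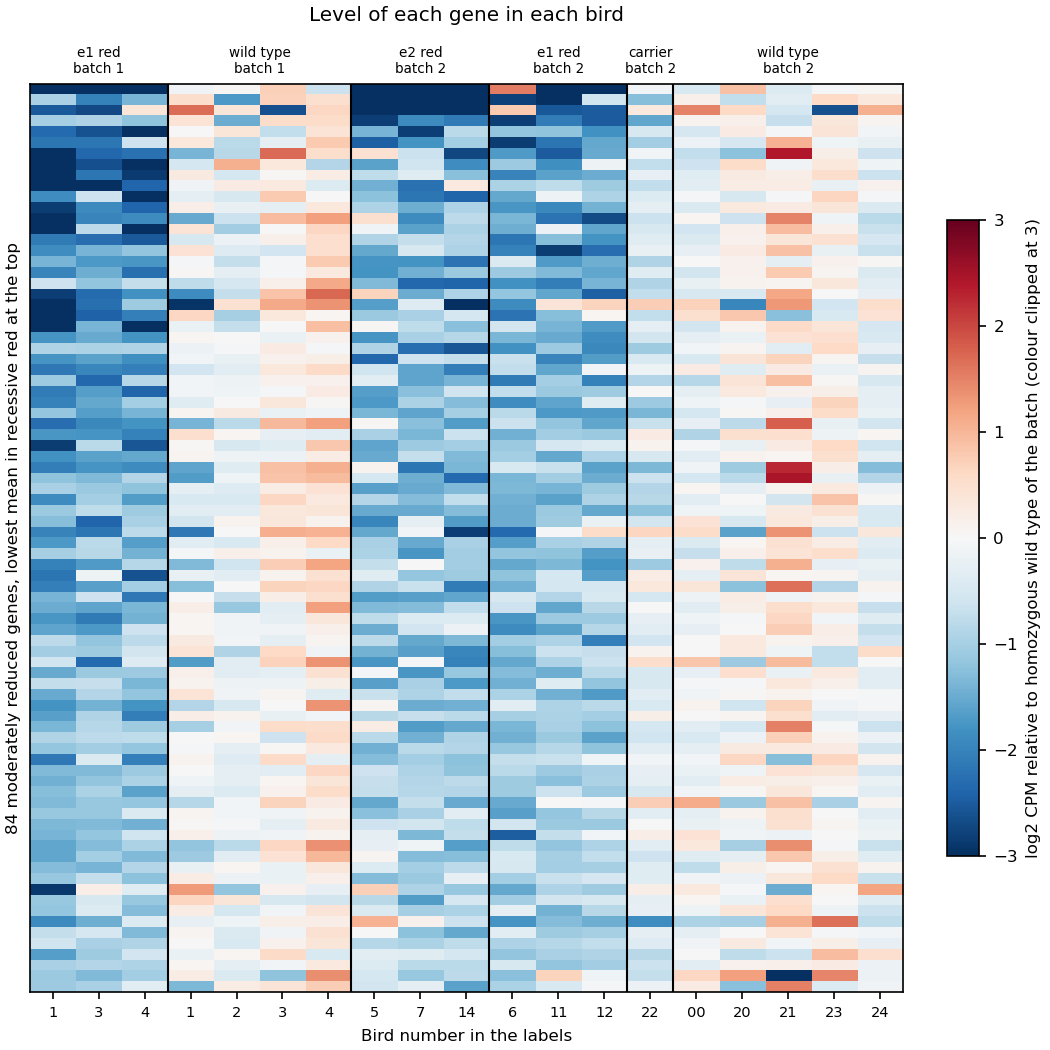
Rows are the 84 moderately reduced genes and columns the 19 birds by their number in the labels, with recessive red birds left of the wild-type birds of their batch and the carrier, bird 22, between. Colour gives log2 CPM relative to the mean of the homozygous wild-type birds of the batch, blue for lower and red for higher. The recessive red columns are blue in most rows, the columns of wild-type birds 4 and 21 are mostly red, and the top row is red in recessive red bird 6.

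Under the rule for named genes, the 2 of the 84 with the lowest p over all birds were A306_00002159 and A306_00003127. A306_00002159 stood at 10.3, 11.9 and 12.7 CPM in the recessive red birds of batch 1 and at 39.1, 33.2, 32.7 and 42.7 CPM in the wild-type birds. In batch 2 it ranged from 15.5 to 27.5 CPM with a median of 20.04 in recessive red, and stood at 35.9, 48.4, 46.5, 62.7 and 36.6 CPM in homozygous wild type. No recessive red bird reached any wild-type bird in either batch. The carrier stood at 32.3 CPM, below its homozygous batch mates and above every recessive red bird. The fitted log2 fold change over all birds was -1.30 ± 0.15 (SE; edgeR, adjusted p = 1.06e-05).

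A306_00003127 had a smaller reduction. Its recessive red birds of batch 1 stood at 15.2, 18.0 and 21.4 CPM, against 37.7, 33.6, 43.2 and 52.9 CPM in wild type. In batch 2 recessive red ranged from 18.4 to 27.2 CPM with a median of 23.4, and homozygous wild type stood at 35.0, 51.3, 50.2, 48.8 and 38.2 CPM. Again the colours did not overlap. The carrier stood at 36.0 CPM, within the range of its homozygous batch mates. The fitted log2 fold change was -1.005 ± 0.113 (SE; edgeR, adjusted p = 1.06e-05). Both genes were called lower in all 25 alternative settings. Their log2 fold changes there lay between -1.38 and -1.22 for A306_00002159 and between -1.04 and -0.95 for A306_00003127. The rule and the lowest p chose both genes by this same contrast, so these settings describe them and test nothing.

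**Figure D3:**
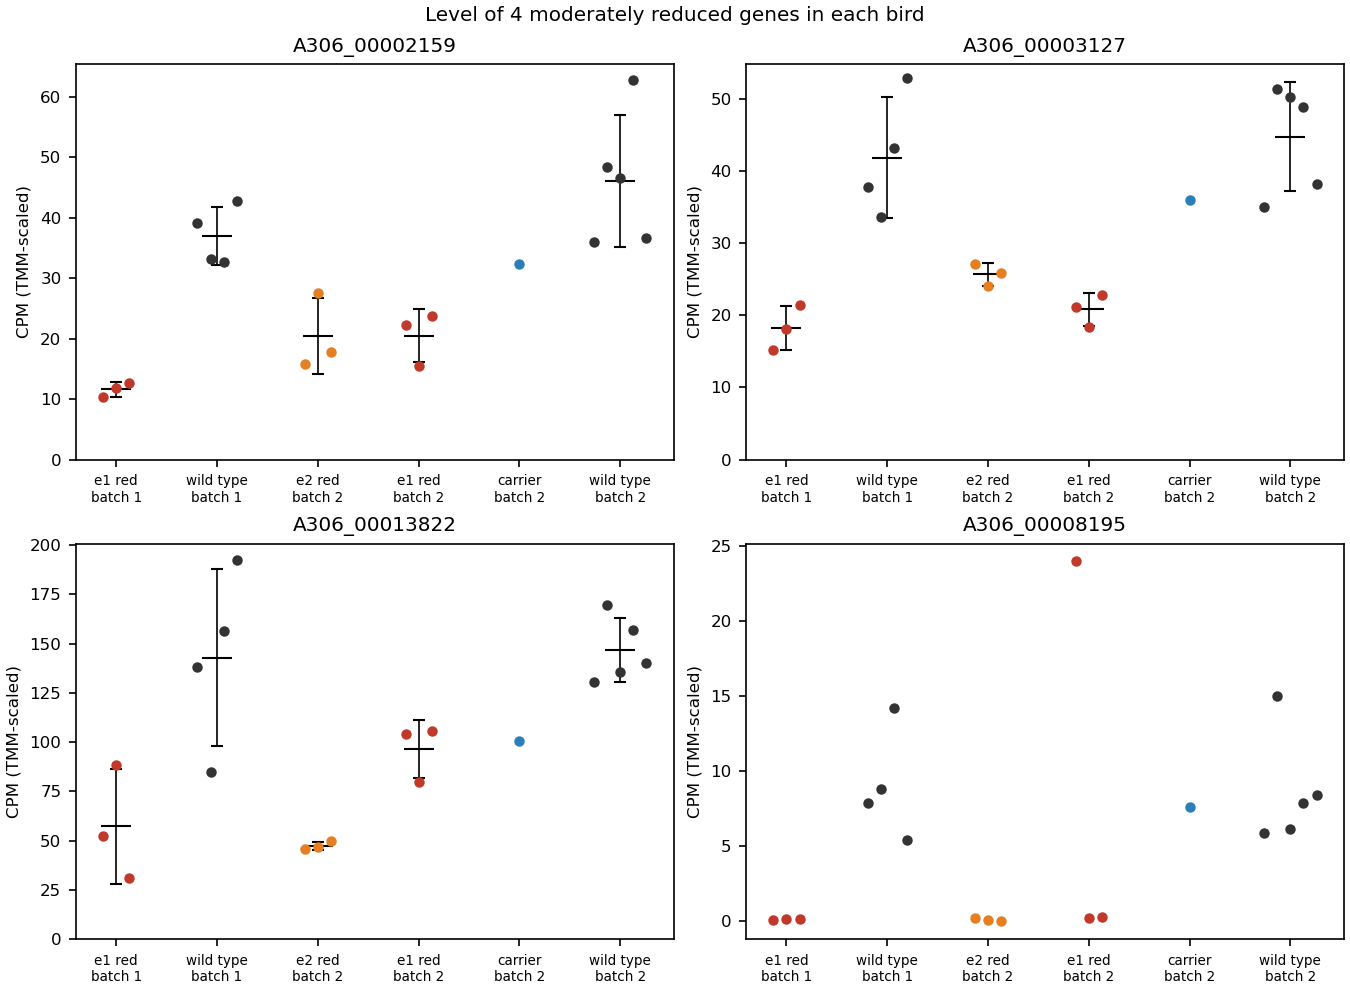
Scaled CPM in each bird (points) for 4 of the 84 genes, with the group mean and SD as bars where a group has 2 or more birds. For A306_00008195 no bars are drawn because 1 of the 3 e1 birds of batch 2 stood at 23.9 CPM and the others at 0.194 and 0.278 CPM.

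Since each batch can be read in genes chosen without it, the first part of the rule was applied to a single batch and the other batch was examined. Chosen in batch 1 alone, 225 genes had a ratio at or below -0.75 with a wild-type mean of at least 2 CPM. In batch 2, 195 of the 225 were below 0 and 125 (55.6%) were again at or below -0.75, where 1.98% of all genes over the floor were. Of the 224 with a test in batch 2, 69 were called lower and 0 higher (edgeR, adjusted p under 0.05), against 1.03% lower among all genes tested. In these birds, which did not choose the genes, the median log2 ratio was -0.82.

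The reverse reading gave similar counts. Of 223 genes chosen in batch 2 alone, 194 were below 0 in batch 1 and 130 (58.3%) were at or below -0.75, against 2.02% of all genes over the floor. Of the 220 with a test in batch 1, 43 were called lower and 0 higher (edgeR, adjusted p under 0.05), where 0.457% of all genes tested were called lower. The median log2 ratio there was -0.95. These lists hold the strongly reduced genes too, since a single batch cannot apply the upper limit of the rule. The 121 genes low in both batches, with the 84 among them, are by definition part of the genes past -0.75 in each reading. The counts therefore describe the 2 lists and give no separate support for the 84.

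The 84 genes were variable among birds of the same group. The SD of log2 CPM had a median of 0.46 over the 84 genes in wild type of batch 1 and 0.46 in homozygous wild type of batch 2. Over the 11007 genes with the same wild-type floor it was 0.21 and 0.19. In recessive red the medians were 0.36 in batch 1, 0.48 in e2 and 0.38 in e1 of batch 2 for the 84 genes, and 0.17, 0.28 and 0.25 for the 11007. The 84 genes thus had the larger median SD in each of the 5 groups. They were also less abundant, with a median unscaled mean of 5.29 CPM in recessive red and 15.7 CPM in wild type of batch 1, where the 11007 genes had 33.7 CPM and 32.5 CPM. The rule took means over these same birds and set no limit on their spread, so the larger SD is not free of the rule. The parts of abundance and of the rule in the larger SD were not tested. The strongly reduced genes had larger medians again, at 0.64 and 0.62 in wild type of batches 1 and 2.

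A score for each bird was taken as the median, over the 84 genes, of log2 CPM relative to the homozygous wild-type mean of the batch. Recessive red birds 1, 3 and 4 of batch 1 scored -1.60, -1.33 and -1.31. Wild-type birds 1, 2, 3 and 4 scored -0.05, -0.28, 0.12 and 0.36. In batch 2 the e2 birds 5, 7 and 14 scored -0.91, -1.15 and -1.08 and the e1 birds 6, 11 and 12 scored -1.23, -1.12 and -1.06. Homozygous wild-type birds 00, 20, 21, 23 and 24 scored -0.19, 0.04, 0.34, 0.14 and -0.26. By this score the recessive red birds of batch 2 lay close together while the wild-type birds spread more widely in each batch. Gene by gene the order in batch 2 was the reverse. The median SD of log2 CPM over the 84 genes was 0.58 in the 6 recessive red birds, both alleles together, and 0.46 in the 5 homozygous wild-type birds.

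**Figure D4:**
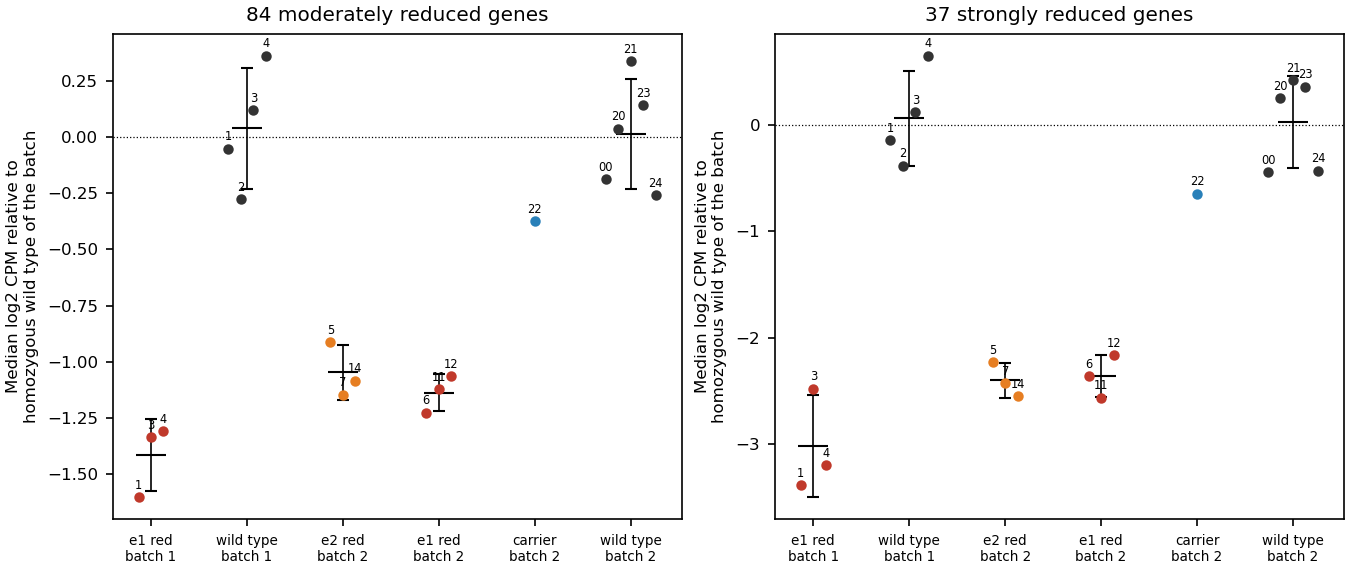
Points are birds, marked with their number in the labels, and bars give the group mean and SD. The y axis is the median log2 CPM relative to homozygous wild type of the batch over the 84 moderately reduced genes (left panel) and the 37 strongly reduced genes (right panel). In both panels wild-type birds 4 and 21 are the highest of their batch and the carrier, bird 22, lies just below the lowest homozygous wild-type bird.

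The spread among wild-type birds was shared by many of the 84 genes. Wild-type bird 4 was the highest of the 4 in batch 1 for 52 of the 84 genes, against 28.1% of the 11007 genes. Wild-type bird 21 was the highest of the 5 homozygous birds of batch 2 for 41 of the 84, against 25.4%, and the lowest for 9, against 26.7%. Bird 2 was the lowest of batch 1 in 31 of the 84, against 27.3%, and bird 24 the lowest of batch 2 in 31, against 22.3%. The strongly reduced genes, none of them among the 84, placed the birds in a like order. Their scores were -0.14, -0.38, 0.12 and 0.65 in wild-type birds 1 to 4 and -0.44, 0.25, 0.42, 0.36 and -0.43 in birds 00, 20, 21, 23 and 24. The rule asked for high means in these same birds for both lists, so the like order is not a separate check. Over the 9 homozygous wild-type birds, after subtraction of the batch means, pairs of the 84 genes had a median correlation of 0.28 (3486 pairs, 69.5% of them above 0), and pairs of the 11007 genes one of -0.0013. Over the 9 recessive red birds, after subtraction of batch and allele means, the median was 0.036 for the 84 genes and -0.0025 for the 11007. All genes of a bird share its library, and these are descriptions over 9 birds.

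Because the same wild-type birds entered the rule, a bird with high levels can bring genes into the list. Without wild-type bird 21, 26 of the 84 genes no longer met the fold limit or the wild-type floor, and without any other single bird at most 10 were lost in this way. A further 14 genes entered, and the list held 71 genes, of which 57 were among the 84. The number of the 84 called lower over all birds was 60 without bird 21, where 3.14% of all genes tested were called in either direction. This fall was not particular to bird 21: the number was 59 without recessive red bird 3, where 3.31% were called. The median correlation over wild-type birds was 0.27 without bird 21 and 0.23 without birds 4 and 21, settings chosen after the values were seen. Both kept the 84 genes as chosen with birds 4 and 21 included, so they cannot show a correlation free of the rule. Over single birds left out in turn, 46 genes left the list at least once and 11 joined the strongly reduced genes at least once.

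In homozygous wild type of batch 2, 1 bird stood apart from the other 4 in 12 of the 84 genes (14.3%), and in 4.82% of the 11007 genes. Bird 21 was the high bird in 9 of the 12. In the recessive red birds of batch 2 this was so for 9 of the 84 (10.7%), against 5.10%, with e2 bird 5 high in 4 and e1 bird 6 high in 3. In wild type of batch 1 it was so for 2 of the 84 (2.38%), against 4.90%. The rule took means over these same birds, and 1 high wild-type bird can bring a gene in. The shares in the 84 are therefore not free of the rule.

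The clearest of these single birds was seen in A306_00008195, singled out after its values were seen. It stood at 0.0568, 0.135 and 0.106 CPM in the recessive red birds of batch 1, against 7.89, 8.79, 14.2 and 5.38 CPM in wild type. In batch 2 the e2 birds 5, 7 and 14 stood at 0.224, 0.0618 and 0 CPM and the e1 birds 11 and 12 at 0.194 and 0.278 CPM. The e1 bird 6 stood at 23.9 CPM from 402 counts, above every homozygous wild-type bird, which stood at 5.87, 15.0, 6.13, 7.83 and 8.37 CPM. The other 8 recessive red birds held 18 counts together. This transcript was nearly absent from 8 of 9 recessive red collars and at or above the wild-type level in the remaining one.

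Without bird 6, A306_00008195 would have met the rule for the strongly reduced genes. Its batch 1 ratio was -3.90, and its batch 2 ratio was -1.07 with bird 6 and -3.85 without it. Over all birds its log2 fold change was -2.13 ± 0.97 (SE; edgeR, adjusted p = 0.244), and without bird 6 it was -6.02 (edgeR, adjusted p = 4.18e-09). Both the gene and the bird left out were picked by these values, so the second p tests nothing. Bird 6 was above all homozygous wild-type birds of its batch in 1 of the 84 genes and the highest of the 6 recessive red birds in 8. The e2 birds 5, 7 and 14 were the highest in 28, 11 and 12, and the e1 birds 11 and 12 in 8 and 17. The rule asks for low recessive red means, bird 6 among them, so the count of 1 cannot show whether bird 6 was generally high. A306_00010420, also singled out after its values were seen, shared the high value of bird 6 at 2.32 CPM, where the other 5 recessive red birds of batch 2 had at most 0.139 CPM. In that gene the recessive red birds of batch 1 stood at 0.170, 0.135 and 1.96 CPM, against 5.05, 1.95, 0.146 and 2.37 CPM in wild type. The homozygous wild-type birds of batch 2 stood at 3.87, 2.03, 0.876, 0.113 and 2.88 CPM, so high and low birds occur in both colours.

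The rule averaged both alleles in batch 2 and did not use their difference there. In batch 1 it used e1 birds alone, so genes lowered in e2 but not in those e1 birds could not enter. The comparison of the alleles over the 84 genes is therefore not free of the rule. Of the 84 genes, 1 was lower and 0 were higher in e2 than in e1 (edgeR, adjusted p under 0.05), where 0.0151% and 0.00754% of the 13269 genes tested were (0.0226% in either direction). By an unadjusted p under 0.05, 7 of the 84 were lower and 10 higher in e2, against 2.67% and 3.36% of all genes tested. DESeq2 also called 1 of the 84, and 0.204% of all genes with an adjusted p. The fitted log2 difference, e2 minus e1, had a median of 0.03 over the 84 genes and of -0.0015 over all genes tested, with 38 of the 84 below 0 and 46 above. The median became 0.16 without e2 bird 7 and -0.030 without e2 bird 5. Against wild type of the same batch, 23 of the 84 were called lower in e2 and 23 in e1, with median log2 fold changes of -1.13 and -1.17, where 0.671% and 0.505% of all genes tested were called lower. These 2 comparisons share their 5 wild-type birds and, as the rule used them, only describe the genes.

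Single genes spread more widely than the median. An absolute difference of at least 1 log2 unit was fitted for 12 of the 84, against 4.54% of all genes tested. Every e2 bird lay below every e1 bird in 5 of the 84 genes and above in 10, while 3.47% and 4.31% of all genes tested did so. The median half-width of the 95% interval of the difference was 0.85 log2 units, and the interval lay within 1 log2 unit of 0 for 29 of the 84 genes. For the rest the interval reached past a 2-fold difference. A306_00008195 had a fitted difference of -6.36 ± 1.71 (SE; edgeR, adjusted p = 0.599), which rested on e1 bird 6 and was -1.28 without it (edgeR, adjusted p = 0.796).

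**Figure D5:**
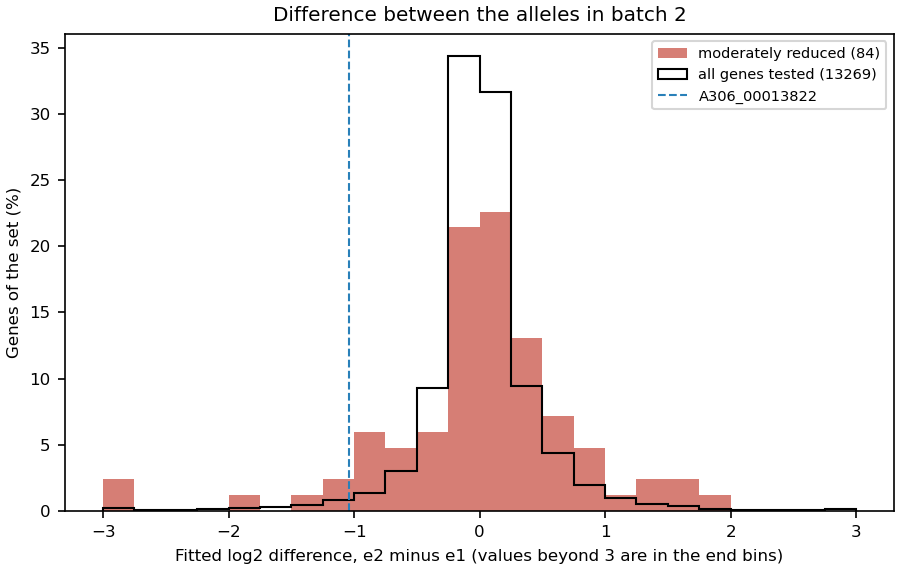
The x axis is the fitted log2 difference, e2 minus e1, in batch 2, and the y axis the percent of genes of each set in bins of equal width, with values beyond 3 in the end bins. Filled bars are the 84 moderately reduced genes and the black outline is the 13269 genes tested, both centred near 0. The dashed line marks A306_00013822 at -1.04.

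A306_00013822 was the gene called between the alleles. It stood at 45.7, 46.8 and 49.5 CPM in e2 birds 5, 7 and 14 and at 104, 79.7 and 105 CPM in e1 birds 6, 11 and 12. Homozygous wild-type birds of the batch stood at 131, 170, 135, 157 and 140 CPM, so the 3 homozygous genotypes did not overlap. The carrier stood at 100.6 CPM, within the range of the e1 homozygotes and below every homozygous wild-type bird. The log2 difference, e2 minus e1, was -1.04 with a 95% interval of -1.36 to -0.72 (edgeR, adjusted p = 0.0453). The call was lost, with the adjusted p between 0.0506 and 0.208 (edgeR), when any 1 of e2 birds 5, 7 and 14, e1 birds 6, 11 and 12, or wild-type birds 00, 20, 21, 23 and 24 was left out. The difference itself stayed between -1.15 and -0.95. In batch 1 the e1 birds stood at 52.3, 88.3 and 30.7 CPM, against 138, 84.6, 156 and 193 CPM in wild type, where 1 e1 bird overlapped the lowest wild-type bird. The e1 birds thus ranged lower in batch 1 than in batch 2, a difference that was not called (log2 difference of batch 2 minus batch 1 of 0.75 ± 0.33, SE; edgeR, adjusted p = 0.219).

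The carrier did not enter the rule, but the 5 homozygous wild-type birds it is set against did. The rule asks for high means in those birds, so it bears on the carrier's place among them. For 31 of the 84 genes it lay below all 5 homozygous wild-type birds of its batch, for 53 within their range and for 0 above it. Over the 13269 genes tested it lay below the range in 11.3% and above it in 9.99%. It was below the homozygous mean in 70 of the 84 genes, against 50.7% of all genes tested. Homozygous birds 00, 20, 21, 23 and 24 were below the mean of their homozygous batch mates in 61, 39, 21, 28 and 64 of the 84. The carrier's score was -0.37, against -0.26 in the lowest homozygous bird, bird 24. The mean behind the scores includes each homozygous bird and not the carrier, which draws the homozygous scores toward 0. Among the 6 birds of wild-type colour in batch 2, the carrier was the lowest in 31 of the 84 genes, bird 24 in 22, bird 20 in 12, bird 00 in 11, bird 21 in 5 and bird 23 in 3. In the same order, these birds were the lowest in 11.5%, 18.8%, 11.5%, 17.4%, 23.9% and 16.9% of all genes tested.

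The carrier lay above all 6 recessive red birds of its batch in 41 of the 84 genes, against 9.69% of all genes tested. In 9 of these it lay between the colours, below every homozygous wild-type bird, against 0.354%. The rule, which asks for low recessive red means, bears on both counts. Its score of -0.37 compares with -0.91 in the highest recessive red bird. The summed level of the 84 genes in the carrier was 1901 CPM, against 2045 CPM in bird 24 and 2108 CPM in bird 00, the lowest homozygous birds. For the strongly reduced genes the carrier scored -0.64, also below bird 00 at -0.44, but their summed level was 8727 CPM in the carrier and 6481 CPM in bird 00. The count of 31 ranged from 31 to 42 with single homozygous birds left out. The 5 homozygous birds were used by the rule, which asks for high wild-type means, while the carrier was not, and a single carrier allows no test.

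Between the batches the homozygous wild-type birds could be compared, a contrast that the rule did not use, though the years, the birds and the sequencing of the batches cannot be told apart. Of the 84 genes, 8 were lower and 3 higher in batch 2 than in batch 1 (edgeR, adjusted p under 0.05), where 16.7% and 15% of the 12573 genes tested were. Calls were thus made for 13.1% of the 84 genes and 31.7% of all genes. The fitted differences were not smaller, with a median absolute log2 difference of 0.38 in the 84 and 0.32 in all genes tested. The standard errors were larger, with medians of 0.27 and 0.15. The count of 11 became 7 without wild-type bird 2, 20 or 23, where 24.2%, 27.3% and 30.2% of all genes were called, and 17 with DESeq2, where 35.9% were.

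The 4 named genes of this comparison show how uneven it was. A306_00001007 stood at 4.42, 6.64, 6.63, 4.82 and 6.20 CPM in homozygous wild type of batch 2 and at 13.04, 16.7, 17.4 and 10.6 CPM in batch 1 (log2 difference -1.33 ± 0.19, SE; edgeR, adjusted p = 6.33e-04). Its recessive red birds stood at 0.909 to 2.64 CPM in batch 1 and at 1.11 to 7.01 CPM in batch 2, so the colours overlapped in batch 2 alone. A306_00003674 stood at 88.3 to 201 CPM in wild type of batch 2 and at 146 to 616 CPM in batch 1 (log2 difference -1.57 ± 0.38, SE; edgeR, adjusted p = 0.00941). Both were lower in batch 2.

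A306_00012801 and A306_00009735 were higher in batch 2. A306_00012801 stood at 10.3, 9.81, 41.5, 62.1 and 11.7 CPM in homozygous wild type of batch 2 and at 4.94 to 6.78 CPM in batch 1 (log2 difference 2.18 ± 0.57, SE; edgeR, adjusted p = 0.0137). Birds 21 and 23 carried most of that level, and e2 bird 5 stood at 41.0 CPM among the recessive red birds. This gene was not called between the colours (log2 fold change over all birds -0.74 ± 0.45, SE; edgeR, adjusted p = 0.384), and it left the list without any 1 of recessive red birds 1 (batch 1), 6, 11, 12 and 14 (batch 2) or wild-type birds 21 and 23. A306_00009735 stood at 13.1 to 24.9 CPM in batch 2 and at 9.89 to 13.3 CPM in batch 1 (log2 difference 0.59 ± 0.19, SE; edgeR, adjusted p = 0.0389), a call that was lost without wild-type bird 1, 2, 4 or 20, with an adjusted p of up to 0.0911.

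In e1 recessive red birds, 0 of the 82 genes with a test were called between batch 2 and batch 1 (edgeR, adjusted p under 0.05), where 0.539% of the 12621 genes tested were lower and 1.01% higher in batch 2, 1.55% in all. By an unadjusted p under 0.05, 4 were lower and 17 higher in batch 2, against 10.5% and 12.1% of all genes tested. DESeq2 called 13 of 78, and 10.9% of all genes with an adjusted p. The fitted log2 difference was above 0 in 60 of the 82 genes with a median of 0.29, against 6385 of the 12621 genes tested and a median of 0.0070. It was above 0 in 25 of the 31 strongly reduced genes with a test, with a median of 0.80. The rule asked for low means in e1 birds alone in batch 1 but averaged e1 with e2 in batch 2, which bears on this direction. Wild type gave a median of 0.02 for the 84 genes in the same comparison. The count of 0 became 5 of 83 without e1 bird 3 of batch 1, where 1.78% of all genes were called. It became 5 of 82 without e1 bird 6 of batch 2, where 9.1% of all genes were called. Both comparisons use birds that also chose the genes.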

How the data were processed

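Polyadenylated RNA of feather collars was sequenced, and the table that the authors deposited holds unnormalized counts for 19 birds. Beside the counts stand the authors' DESeq2 log2 fold changes, their test scores and p-values and a mean signal, per the file headers. Identifiers are headed Cliv2.1 there. Aligner, counter and strand setting: not given in the sources used here. Genes were placed by the rule on unscaled CPM. The genes, lists and tests were chosen with earlier results of these data known. Counts were tested with edgeR 4.0.16 in R 4.3.3: filterByExpr, TMM scaling, glmQLFit, glmQLFTest, Benjamini-Hochberg adjustment over all genes tested, adjusted p under 0.05. The standard error is the log2 fold change divided by the square root of F. All birds were fitted with a batch term and the carrier as wild type. Batch 2 fits gave the carrier its own coefficient. The fits were also run on simulated counts, in which no bird was set apart by design, and nothing is read from that run here. Named genes were the 2 lowest p over all birds and, in the other comparisons, up to 2 calls in each direction. A bird stood apart where its gap to the nearest bird of the group exceeded Dixon's critical value for the range. Alternatives were DESeq2 (1.42.0) size factors and Wald test, other filters, other pseudocounts, no batch term, a replicate block and each bird left out. The bird numbers shared in batch 1 gave no sign of pairing, and the main fits did not use them as pairs. The labels do not say whether birds were related, so p-values measure the spread between these birds.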

Additional observations from a re-analysis of the deposited data

Results flagged for a closer look

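Single birds were checked in groups of 4 to 6 birds, in 33 checks of the named and singled-out genes, the summed level and the score. By chance about 1 check in 20 is flagged. A306_00008195 and A306_00010420 were singled out after their values were seen, so their flags cannot be held against that rate. In the recessive red birds of batch 2, bird 6 stood apart at 23.9 CPM in A306_00008195 and at 2.32 CPM in A306_00010420, bird 14 at 7.01 CPM in A306_00001007, and bird 5 at 1387 CPM in the summed level of the 84 genes. In homozygous wild type of batch 2, bird 20 stood apart at 15.0 CPM in A306_00008195. The effect of the alleles differed in A306_00013822, by a log2 difference of -1.04, e2 minus e1 (edgeR, adjusted p = 0.0453 in the direct test of the difference). That call was lost without any 1 recessive red or homozygous wild-type bird of batch 2, with the adjusted p between 0.0506 and 0.208 (edgeR).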

How the results depend on the processing

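Single birds left out gave 71 to 95 genes under the rule, 59 to 73 of the 84 called lower over all birds, 11 to 29 in batch 1 and 29 to 40 in batch 2. They gave 0 to 1 between the alleles, 7 to 16 between the wild-type batches and 0 to 5 between the e1 batches. The median e2 minus e1 difference lay between -0.030 and 0.16, and the carrier lay below the wild-type range in 31 to 42. With DESeq2 the counts were 56 in batch 1, 17 between the wild-type batches and 13 between the e1 batches, where 1.84%, 35.9% and 10.9% of all genes were called. The e1 count of 0 became 1 with DESeq2 size factors, 1 with no filter and 1 with the stricter filter, where 1.67%, 1.42% and 1.91% were called. With scaled CPM the rule gave 91 genes, and with a pseudocount of 1 it gave 75. The replicate block by bird number gave 67 called lower over all birds and 11 in batch 1, where 5.34% and 0.307% of all genes tested were called in either direction. The shared numbers 1, 3 and 4 had correlations of -0.19, -0.08 and -0.13 between the deviations of same-numbered birds. These values gave no sign of pairing, but so few correlations cannot exclude it. With 3 to 6 birds a group, the cause of these shifts was not tested.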
